A study of Mus musculus with 4 samples.

Results

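The chromatin around Bcl6 and Prdm1 was examined in mouse CD4+ T cells by ATAC-seq, in which a transposase marks open DNA. Peaks within the gene records of Bcl6 and Prdm1 and 150 kb on each side were merged across libraries, and peaks that shared at least 1 base were counted as 1 region. This gave 66 of the 93679 regions of the whole data set, 25 in the Bcl6 window and 41 in the Prdm1 window. Naive CD4+ T cells, sorted as CD25- cells with high CD62L and low CD44, came from spleens of male wild-type C57BL/6 mice aged 7 weeks. All cells were stimulated for 48 h with anti-CD3 at 5 µg/ml and anti-CD28 at 1 µg/ml, with TGF-β1 at 5 ng/ml and IL-2 at 10 ng/ml, which are Treg-polarizing conditions. The iTreg+PBS group (2 libraries) received no IL-4, and the iTreg+IL-4 group (2 libraries) also received IL-4 at 15 ng/ml. The study describes the samples of a group as independent pooled samples, and no sort after culture is described. A change in the mixture of cells and a change within cells therefore cannot be told apart.

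Bcl6 encodes a zinc-finger repressor that directs follicular helper T (Tfh) cells, and Prdm1 encodes Blimp-1, a repressor found in effector and regulatory T cells and in plasma cells. Each represses the other, so that the pair is often described as a switch between cell fates. Signals from IL-2 through STAT5 favour Prdm1 over Bcl6 in T cells, and Bcl6 also represses its own gene. IL-4 acts through STAT6, which prefers a palindrome with a spacer 1 base longer than the usual STAT site. The comparison with IL-4 asked which regions of either gene were open under each condition. Expression of either gene was not analysed here.

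Bcl6 lies on the minus strand of chromosome 16, from 23965050 to 23988866 in the RefSeq annotation of GRCm38 (mm10), and its curated start site is at 23988852. Prdm1 lies on the minus strand of chromosome 10. Its record runs from 44437174 to 44528558 because a predicted transcript starts at the far end, whereas the curated transcript starts at 44458748. Distances below are from these curated start sites to the centre of a region. Regions are numbered along the chromosome, so that on both minus-strand genes the numbers run from downstream to upstream.

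The regions on which the results turn are printed here in the direction of the plus strand of GRCm38. The first pair are sites in the Bcl6 promoter region, with 3 bases on each side, and the next is Bcl6 region 16. The Prdm1 sequences are the start-site regions and regions 10 and 21. Regions 16, 10 and 21 are shown because each held a STAT6-type match and ranked better by −log10 q in both iTreg+IL-4 libraries than in iTreg+PBS replicate 1. None of them had a peak in iTreg+PBS replicate 2, and region 10 lost this order by height. Capitals mark matches to any of the 5 motifs searched, all of them on both strands in the 200 bases at the centre of a region. These were TTCNNNNGAA (STAT6-type), TTCNNNGAA (STAT-type), TTCNTAGAA (Bcl6-type, every match of which is also a STAT-type match), TGANTCA (AP-1-type) and AGNGAAAG (Blimp-1-type).
Bcl6 region 10, first site, chr16:23988586-23988600: cctTTCCTAGAAact
Bcl6 region 10, other site, chr16:23988612-23988626: cacTTCTAAGAAccc
Bcl6 region 16, chr16:24026423-24026622: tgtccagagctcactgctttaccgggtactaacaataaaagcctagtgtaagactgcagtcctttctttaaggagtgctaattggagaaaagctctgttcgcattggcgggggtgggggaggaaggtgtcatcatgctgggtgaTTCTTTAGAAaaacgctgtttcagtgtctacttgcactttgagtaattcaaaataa
Prdm1 region 26, chr10:44458749-44458824: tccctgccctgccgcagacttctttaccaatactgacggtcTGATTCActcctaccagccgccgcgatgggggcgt
Prdm1 region 30, chr10:44529449-44529648: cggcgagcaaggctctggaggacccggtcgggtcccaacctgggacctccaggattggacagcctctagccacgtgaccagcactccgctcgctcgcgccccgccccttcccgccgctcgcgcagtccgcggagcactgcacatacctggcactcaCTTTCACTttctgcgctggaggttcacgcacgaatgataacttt
Prdm1 region 10, chr10:44375613-44375812: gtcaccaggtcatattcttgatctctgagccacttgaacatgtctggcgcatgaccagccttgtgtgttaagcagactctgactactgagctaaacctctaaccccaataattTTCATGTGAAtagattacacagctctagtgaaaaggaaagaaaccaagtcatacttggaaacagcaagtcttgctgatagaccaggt
Prdm1 region 21, chr10:44442110-44442309: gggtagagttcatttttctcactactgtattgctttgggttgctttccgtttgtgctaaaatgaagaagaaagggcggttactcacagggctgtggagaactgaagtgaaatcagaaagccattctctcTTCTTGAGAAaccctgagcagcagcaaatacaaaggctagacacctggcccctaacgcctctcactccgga

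The lists held 56645 to 78670 peaks, with the fewest in iTreg+PBS replicate 2, and the number of reads is unknown, so the absence of a peak says only that the signal there stayed under the caller's threshold. Both libraries numbered 2 had shorter lists than those numbered 1, at 56645 peaks for iTreg+PBS and 67743 for iTreg+IL-4. Peaks were therefore compared by rank, the percentage of peaks in the same list with a higher −log10 q, and a lower percentage means a stronger peak. This rank still moves with the length of the list. The 47767 regions called in all 4 libraries averaged 34.4% and 43.8% in iTreg+PBS replicates 1 and 2. In iTreg+IL-4 replicates 1 and 2 they averaged 33.8% and 38.1%. An exact permutation test of 2 libraries against 2 cannot give a two-sided p under 0.333, so none of these tests could pass 0.05. There were 6 such tests, and the smallest p after Benjamini-Hochberg adjustment over them was 0.8 (exact permutation tests). A promoter peak, defined as one within 1 kb upstream to 500 bases downstream of any start site of a gene, was present in all 4 libraries for 9 of 10 T cell markers, Cd3e, Cd4 and Cd28 among them, and in none for Trac. Cd79a and Cd79b of B cells, Csf1r and Lyz2 of myeloid cells, both NK cell markers and both erythroid markers had none in any library, whereas Ebf1, Cd14, Cebpa and Cd8b1 had one in all 4. Ms4a1, Itgam and Spi1 had one in 3 libraries, Cd8a in 2 and Pax5 in 1.

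The main promoters of Bcl6 and Prdm1 were open in every library, and at both the ranks of the libraries with and without IL-4 overlapped, in full lists and among regions called in all 4 libraries. At Bcl6, region 10 (chr16:23987909-23989144) covered the curated start site. Its −log10 q was 145 and 91.9 in iTreg+PBS replicates 1 and 2, and 123 and 121 in iTreg+IL-4 replicates 1 and 2. Its rank was 16.6% and 15.2% without IL-4, against 17.6% and 16.2% with it. The groups overlapped. Ranked only among regions called in all 4 libraries they overlapped too but lay farther apart, at 26.7% and 18% without IL-4, against 29% and 22.9% with it. The mean rank was 15.9% ± 0.998 (SD, n = 2) without and 16.9% ± 0.996 (SD, n = 2) with IL-4, which differed by 1.03 percentage points (exact two-sided permutation test, p = 0.667). This difference was 3.61 points among regions called in all 4 libraries, 3.05 with lists of equal length, 2.09 in the upper 50% of each list and 0.528 by height, and 0.32 points without iTreg+PBS replicate 2. This was the best-ranked Bcl6 region by its weakest library. Its centre also lay 260 bases from the start of Gm31527, a long noncoding RNA gene on the other strand, whose start site the region covered too.

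Region 10 held both Bcl6-type matches of the Bcl6 window, TTCCTAGAA at 23988589 and TTCTAAGAA at 23988615, each at its first base. Their centres were 259 and 233 bases downstream of the curated start site, in the first, untranslated exon of the curated transcript. A Bcl6-type match was found in 1.62% of the 93503 regions on assembled chromosomes, in 1 of 25 Bcl6 regions and in 1 of 41 Prdm1 regions. The one at Prdm1, TTCTATGAA, was in region 11, 80.8 kb downstream of the start site, which had a peak in both libraries numbered 1 and in neither numbered 2. A match is a description of the letters and not a measurement of binding.

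At Prdm1, the strongest regions were a pair of start-site regions 70.8 kb apart. Region 26 (chr10:44458330-44459119) covered the curated start, and its −log10 q was 490 and 145 in iTreg+PBS replicates 1 and 2, compared with 436 and 270 in replicates 1 and 2 of iTreg+IL-4. Its rank was 3.4% and 9.63% without IL-4, against 3.21% and 7.04% with it. The ranks followed the replicate number more closely than the condition, and the groups overlapped. Region 30 (chr10:44529210-44529888) lay at the far start site of the predicted transcript, its centre 991 bases upstream of it, and ranked 6.7% and 7.14% without IL-4, against 7.07% and 4.86% with it. Over all start sites, the best promoter peak of Prdm1 was that of region 26 in both libraries numbered 1 and that of region 30 in both numbered 2. Mixing these 2 start sites, it ranked 5.27% ± 2.64 (SD, n = 2) without and 4.03% ± 1.16 (SD, n = 2) with IL-4, which differed by −1.23 points (exact two-sided permutation test, p = 0.667). Without iTreg+PBS replicate 2 this difference was 0.636 points, in the other direction. At the curated start site alone it was −1.39 points, in the upper 50% of each list −2.46 points and with lists of equal length −0.747 points. Region 30 held a Blimp-1-type match, CTTTCACT, and region 26 an AP-1-type match, TGATTCA, 45 bases upstream of the start site.

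A further internal start site of each gene had a weaker region. Bcl6 region 7, in an intron 6.28 kb downstream and reaching the promoter interval of a curated shorter transcript, ranked 26% and 35.5% without IL-4, against 23.7% and 24.4% with it. Prdm1 region 25, at the start of a predicted short transcript 8.68 kb downstream, ranked 45.9% and 53.3% without IL-4, against 51.3% and 62% with it. The Bcl6 ranks did not overlap between the conditions and were better with IL-4, and the Prdm1 ranks overlapped. Among regions called in all 4 libraries the Bcl6 ranks stayed better with IL-4 without overlap, at 41.8% and 41.8% without it, against 39% and 34.5%. The Prdm1 ranks no longer overlapped on that scale and were worse with IL-4, at 70.2% and 62.3% without it, against 77.1% and 81.2%.

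**Figure D1:**
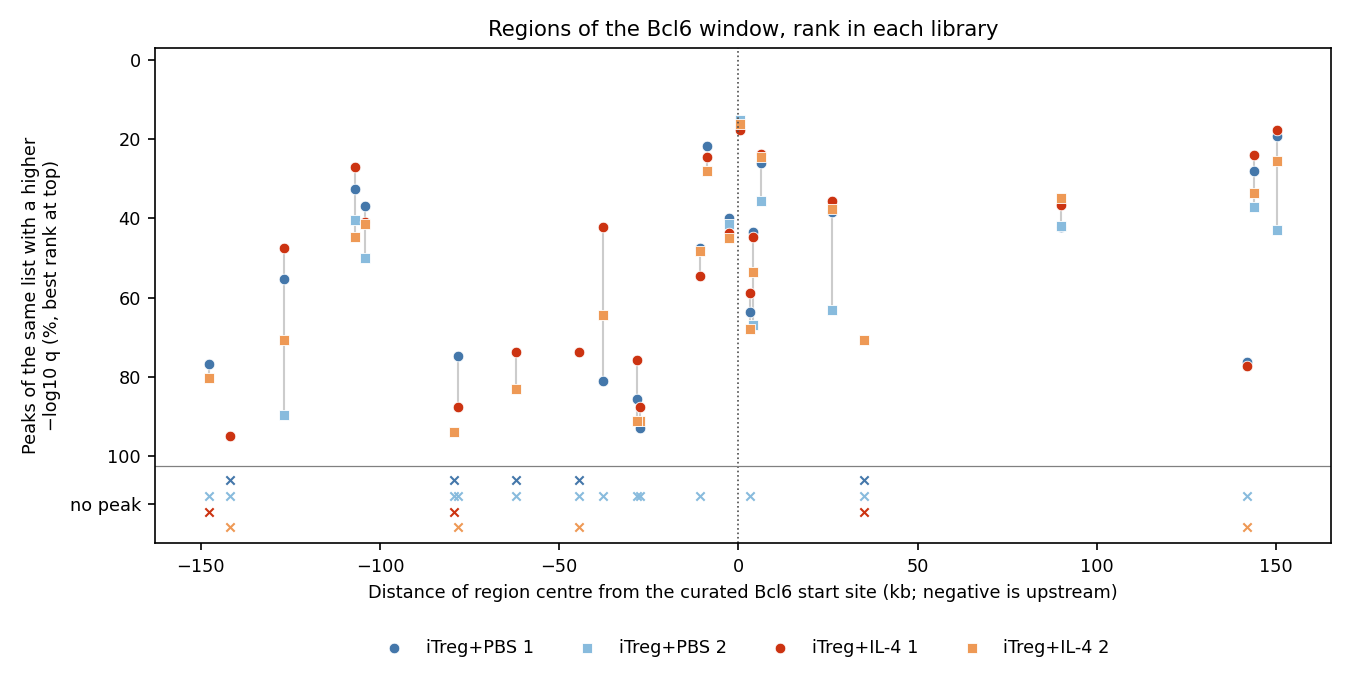
Rank of each of the 25 Bcl6 regions in each library (vertical axis, percentage of peaks in the list with a higher −log10 q, best at the top) against the distance of its centre from the curated start site in kb, with crosses where a library had no peak. At the promoter the 4 libraries lie between 15.2% and 17.6% on this scale of full lists, and no region had peaks in both iTreg+PBS libraries and neither iTreg+IL-4 library.

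The Bcl6 window held 1 region with peaks in both iTreg+IL-4 libraries but in neither iTreg+PBS library, 1 of 25 regions against a background of 2.60% over all regions. This was region 18, intergenic and 62.1 kb upstream of the start site. It had no peak in either iTreg+PBS library and −log10 q values of 9.19 and 6.29 in iTreg+IL-4 replicates 1 and 2, with 73.6% and 83% of the peaks in those lists higher. It was thus among the weaker peaks of both lists. No Bcl6 region had peaks in both iTreg+PBS libraries but in neither iTreg+IL-4 library (background 0.699%). Kept to the upper 50% of each list (background 2.10%), or with flanks of 50 kb, the window had 0 regions called only with IL-4, and with lists of equal length it had 1 of 17 (5.88%, background 1.95%). With 1 library left out, these classes grew in the whole data set too. The window had 6 of 25 regions called only with IL-4 without iTreg+PBS replicate 1 (24%, background 13.6%). It had 3 of 23 (13%) without iTreg+IL-4 replicate 1 or without iTreg+IL-4 replicate 2, with backgrounds of 7.25% and 11.1%. Without iTreg+PBS replicate 2, 1 of 26 regions was called only without IL-4 (3.85%, background 8.21%).

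Of the 25 Bcl6 regions, 12 were called in all 4 libraries (48%, background 51.0%), 5 in 3 libraries (background 13.7%), 4 in 2 (background 13.7%) and 4 in a single library (background 21.6%). All 5 regions called in 3 libraries lacked a peak in iTreg+PBS replicate 2, which is 20% of the window against 9.97% of all regions, and 2 (8%) were called in both libraries numbered 1 and neither numbered 2 (background 7.60%). In order, the libraries iTreg+PBS replicates 1 and 2 and iTreg+IL-4 replicates 1 and 2 called 20, 12, 22 and 21 regions. iTreg+PBS replicate 2 stood apart from the other libraries, while iTreg+PBS replicate 1 was within 2 regions of both iTreg+IL-4 libraries. The bases inside peaks were 10803 and 7344 without IL-4, against 10932 and 10619 with it. Their mean was 9074 ± 2446 (SD, n = 2) without and 10776 ± 221 (SD, n = 2) with IL-4, which differed by 1702 bases (exact two-sided permutation test, p = 0.667). It was 838 bases with lists of equal length, 774 with the upper 50% of each list and 872 with flanks of 50 kb, and −27.5 bases without iTreg+PBS replicate 2.

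Among the 12 Bcl6 regions called in all 4 libraries, 3 ranked better in both iTreg+IL-4 libraries than in both iTreg+PBS libraries (25%, background 19.7%) and 1 ranked worse in both (8.33%, background 5.18%). Region 7 in the intron, described above, was 1 of the 3. Region 4 (chr16:23898209-23899281), 90.1 kb downstream and 7403 bases from the start of Sst, the gene of the hormone somatostatin, ranked 42.2% and 41.8% without IL-4, against 36.6% and 34.9% with it. The mean difference was −6.22 points. Ranked only among regions called in all 4 libraries it was −3.36 points and the conditions overlapped, at 65.6% and 49.1% without and 58.8% and 49.2% with IL-4. Region 6, 26.2 kb downstream, ranked 38.4% and 63.2% without IL-4, against 35.6% and 37.7% with it, so that most of its difference lay in iTreg+PBS replicate 2. Region 11, 2.61 kb upstream and the one that ranked worse with IL-4, stood at 39.8% and 41.5% without and at 43.7% and 45% with IL-4. Among regions called in all 4 libraries, regions 6 and 7 stayed better and region 11 stayed worse with IL-4, without overlap. There region 6 ranked 60.4% and 73% without IL-4, against 57.4% and 52.9% with it. Region 11 ranked 62.3% and 48.8% without IL-4, against 68.4% and 62.4% with it. Regions 4 and 11 each held a STAT-type match, TTCACTGAA and TTCTCTGAA, which 8.47% of all regions held.

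The mean rank of these 12 regions was 33.3% and 46% in iTreg+PBS replicates 1 and 2 and 32% and 37.9% in iTreg+IL-4 replicates 1 and 2. It averaged 39.7% ± 8.98 (SD, n = 2) without and 35% ± 4.24 (SD, n = 2) with IL-4, which differed by −4.73 points (exact two-sided permutation test, p = 0.667). The median difference per region was −4.89 points, against −2.05 points over the 47767 regions of the whole data set called in all 4 libraries. The difference in mean rank was −0.811 points with lists of equal length, and −0.984 points when ranked only among those 47767 regions. It was −0.608 points without iTreg+PBS replicate 2 and −1.74 points without iTreg+IL-4 replicate 1, against −11.1 points without iTreg+PBS replicate 1 and −7.73 points without iTreg+IL-4 replicate 2. Ranked only among the 47767 regions, the median difference of the Bcl6 regions was −0.884 points, and 2 of 12 were better and 2 worse with IL-4 without overlap (backgrounds 14.3% and 12.7%).

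The other strong Bcl6 regions were distal. Region 12, 8.88 kb upstream within an intron of Gm31527, was the best-ranked one over 1 kb from any start site. It ranked 21.7% and 28.1% without IL-4, against 24.4% and 27.9% with it. Region 2, 144 kb downstream in an intron of the noncoding gene Gm31430, ranked 28% and 37.1% without IL-4, against 24% and 33.5% with it. Both overlapped between the conditions, but among regions called in all 4 libraries region 12 ranked worse with IL-4, at 34.9% and 33.2% without it, against 40.1% and 39.4%. The upstream flank of Bcl6 held 15 of the 25 regions, 5 of them called in all 4 libraries (background 51.0%). The gene record held 4 with 3 called in all 4, and the downstream flank held 6 with 4 called in all 4. With so few regions, a difference between these parts was not tested.

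**Figure D2:**
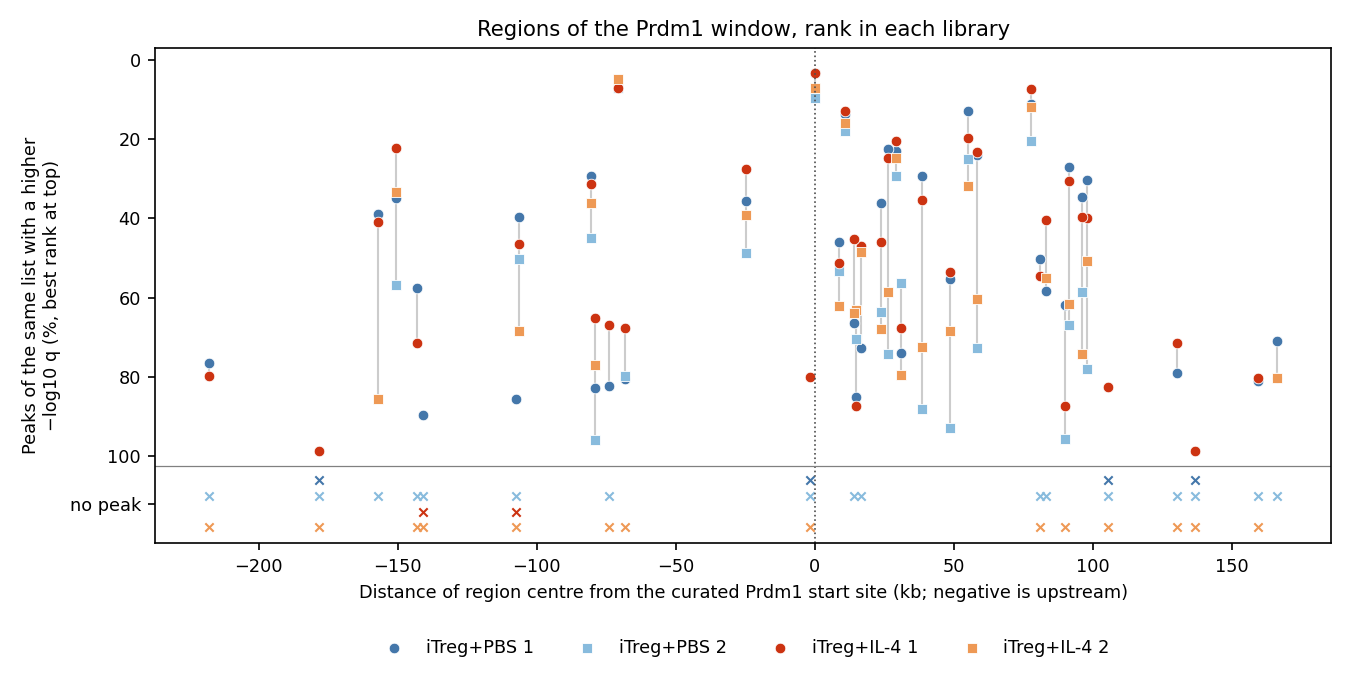
Rank of each of the 41 Prdm1 regions in each library against the distance of its centre from the curated start site in kb, drawn as in the map of Bcl6. The strongest regions are at the curated start and 70.8 kb upstream, and downstream of the gene both libraries numbered 2 (squares) mostly sit below those numbered 1 (circles).

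The Prdm1 window held no region with peaks in both libraries of 1 condition but in neither of the other, in either direction, among 41 regions (backgrounds 2.60% and 0.699%). Regions called only with IL-4 numbered 1 of 22 in the upper 50% of each list (background 2.10%), 5 of 39 without iTreg+PBS replicate 1 (12.8%, background 13.6%) and 4 of 41 without iTreg+IL-4 replicate 2 (9.76%, background 11.1%). Those called only without IL-4 numbered 1 of 32 with lists of equal length (background 0.918%), 2 of 41 without iTreg+PBS replicate 2 (background 8.21%) and 2 of 37 without iTreg+IL-4 replicate 1 (background 3.20%). The window had 22 regions called in all 4 libraries (53.7%, background 51.0%), 7 in 3 libraries (background 13.7%), 6 in 2 (background 13.7%) and 6 in a single library (background 21.6%). All 6 regions called in 2 libraries were called in both libraries numbered 1 and neither numbered 2, which is 14.6% of the window against 7.60% of all regions, and 5 of the 7 regions called in 3 libraries lacked a peak in iTreg+PBS replicate 2 (12.2% of the window, background 9.97%). In the same order of libraries, 37, 24, 39 and 27 regions were called. The bases inside peaks were 18030 and 11213 without IL-4, against 18852 and 14267 with it, so that both libraries numbered 2 had fewer than both numbered 1. The means were 14622 ± 4820 (SD, n = 2) without and 16560 ± 3242 (SD, n = 2) with IL-4, which differed by 1938 bases (exact two-sided permutation test, p = 0.667), and by 766 bases with the upper 50% of each list and 1041 with flanks of 50 kb. Leaving out iTreg+PBS replicate 2 made the difference −1470 bases, and leaving out iTreg+IL-4 replicate 1 made it −354 bases.

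The replicate number went with the ranks of Prdm1 regions more than the condition did. Of the 22 regions called in all 4 libraries, 17 ranked better in both libraries numbered 1 than in both numbered 2 (77.3%, background 50.4%), among them 11 of 12 in the downstream flank and 6 of 10 in the rest of the window. At Bcl6 the count was 7 of 12. The reverse order, better in both libraries numbered 2, was seen in 1 region of each window (background 5.57%), and no member was called in both libraries numbered 2 and neither numbered 1 (background 0.480%). The counts by rank use full lists, where ranks over the whole data set were better in the libraries numbered 1. The replicate order was not counted on ranks among regions called in all 4 libraries. On that scale the mean rank at Prdm1 was 49.9% and 51.7% in the libraries numbered 1, against 60.6% and 62.9% in those numbered 2. At Bcl6 it was 52.1% and 51.1%, against 53.1% and 52.1%. Only 2 of the 22 Prdm1 regions ranked better in both iTreg+IL-4 libraries (9.09%, background 19.7%), and none ranked worse in both (background 5.18%). Ranked only among the regions called in all 4 libraries, 4 were better (18.2%, background 14.3%) and 3 worse (13.6%, background 12.7%), so neither the low count nor the absence of worse ranks held on that scale. The mean rank of the 22 regions was 34.4% and 53.7% without IL-4, against 34.7% and 48.6% with it. It averaged 44% ± 13.6 (SD, n = 2) without and 41.6% ± 9.85 (SD, n = 2) with IL-4, which differed by −2.4 points (exact two-sided permutation test, p = 1). This difference was 2.05 points when regions were ranked only among those called in all 4 libraries and 3.63 points with lists of equal length. It was 5.39 points without iTreg+PBS replicate 2 and 4.57 points without iTreg+IL-4 replicate 1. The median difference per region was −2.92 points, and −0.0314 points when ranked only among regions called in all 4.

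The downstream flank of Prdm1, which reaches into Atg5, an autophagy gene, held 20 of the 41 regions and 12 of the 22 called in all 4 libraries. Region 12 (chr10:44380372-44381777), intergenic and 77.7 kb downstream, was the strongest there, with ranks of 11.1% and 20.4% without IL-4, against 7.21% and 11.8% with it. Region 18, 29.1 kb downstream, ranked 22.9% and 29.2% without IL-4, against 20.5% and 24.7% with it. In both of them the conditions overlapped, but among regions called in all 4 libraries those of region 12 did not, at 17.8% and 24.1% without IL-4, against 11.9% and 16.7% with it. Region 14, 55.1 kb downstream, ranked 12.9% and 24.9% without IL-4, against 19.8% and 31.7% with it, with overlap, and was worse with IL-4 without overlap among regions called in all 4, at 20.8% and 29.4% without it, against 32.5% and 44.7%. Region 16, 38.6 kb downstream in a noncoding exon of Gm35028, showed the widest spread between the iTreg+PBS replicates, at 29.2% and 88% without IL-4, against 35.4% and 72.4% with it.

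Within the gene record, region 24 (chr10:44447363-44448767), 10.7 kb downstream of the start site, was the best-ranked Prdm1 region over 1 kb from any start site. It ranked 13.7% and 17.9% without IL-4, against 12.9% and 15.9% with it, and held none of the motifs. The 2 regions that ranked better with IL-4 without overlap were both in the upstream flank and both held an AP-1-type match, which 12.9% of all regions and 7 of 41 Prdm1 regions held. Region 38 (chr10:44609214-44609588), 151 kb upstream in an intron of Gm35154, ranked 34.9% and 56.7% without IL-4, against 22.3% and 33.4% with it. Region 32, 79.2 kb upstream, was weaker, at 82.9% and 95.9% without IL-4, against 65.1% and 77.1% with it. Among regions called in all 4 libraries both stayed better without overlap, as did region 28, in an intron 24.6 kb upstream, at 56.4% and 57.2% without IL-4, against 44.8% and 54.8% with it. Region 34, 106 kb upstream, was worse with IL-4 on that scale, at 61.9% and 58.9% without it, against 71.8% and 86.6%, a shift of 18.8 points, whereas in the full lists its ranks overlapped, at 39.5% and 50.3% without IL-4, against 46.4% and 68.4%.

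**Figure D3:**
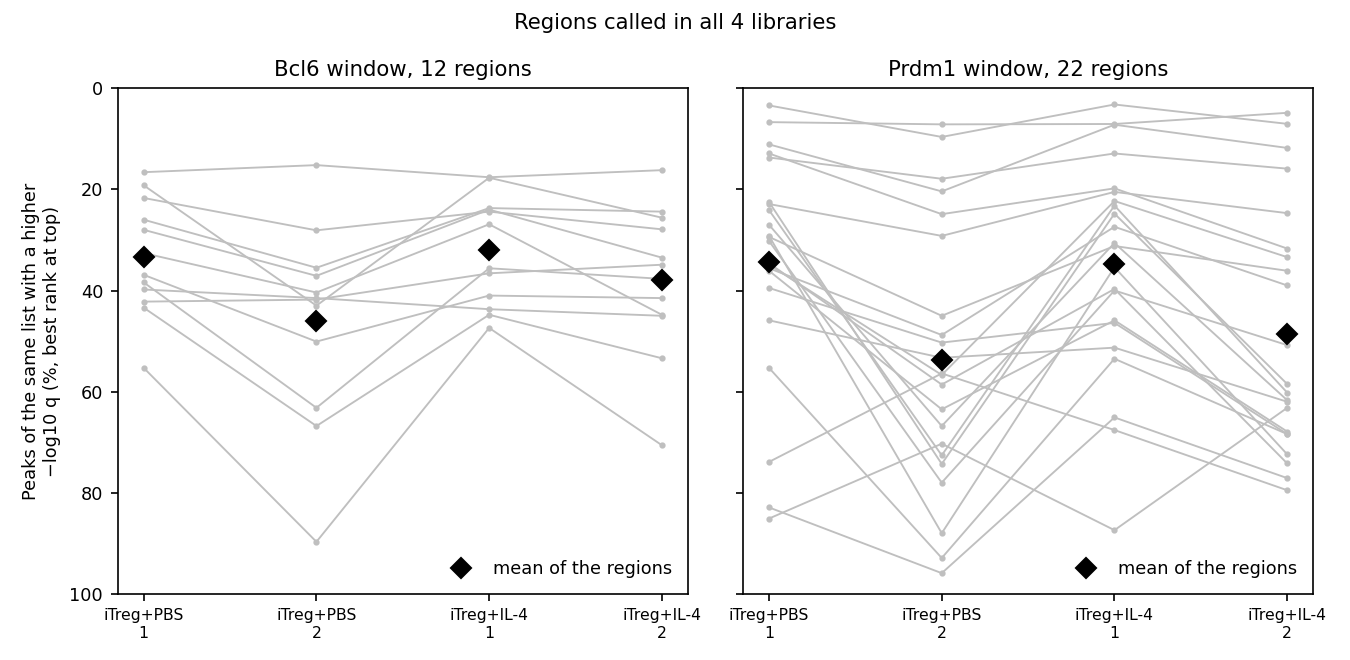
Rank in each library of the regions called in all 4 libraries, 12 at Bcl6 and 22 at Prdm1 (grey lines join the values of 1 region, diamonds are the means). The Prdm1 means were 34.4% and 34.7% in the libraries numbered 1 and 53.7% and 48.6% in those numbered 2, a wider gap than that between the conditions.

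Regions without a peak in every library were placed in the same order by setting an uncalled region last in its library. By this order 6 of 25 Bcl6 regions (24%) and 5 of 41 Prdm1 regions (12.2%) were better in both iTreg+IL-4 libraries than in both iTreg+PBS libraries, against 15.6% of all regions. In the other direction there was 1 Bcl6 region and no Prdm1 region (background 3.99%). This order was chosen after the data were seen. Of the 11 regions better with IL-4, 5 were called in 3 libraries, and in each of these the missing peak was that of iTreg+PBS replicate 2, the shortest list, whose part in these counts was not tested.

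A STAT6-type match was found in 1 of 25 Bcl6 regions (4%) and 6 of 41 Prdm1 regions (14.6%), against 5.84% of all regions. Of these 7 regions, 3 were better with IL-4 by this order. Over all regions on assembled chromosomes, the share was 26.6% with a STAT6-type match and 15% without one. Bcl6 region 16 (chr16:24026347-24026698), intergenic and 37.7 kb upstream, held TTCTTTAGAA. Its −log10 q was 7.34 in iTreg+PBS replicate 1, with no peak in iTreg+PBS replicate 2, and 31.7 and 13.1 in iTreg+IL-4 replicates 1 and 2. In rank this was 81.1% in iTreg+PBS replicate 1 against 42.2% and 64.3% with IL-4.

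Prdm1 region 21 (chr10:44442096-44442324), in an intron 16.5 kb downstream, held TTCTTGAGAA. It ranked 72.7% in iTreg+PBS replicate 1, had no peak in iTreg+PBS replicate 2, and ranked 47% and 48.5% with IL-4. Prdm1 region 10 (chr10:44375579-44375846), 83 kb downstream, held TTCATGTGAA and ranked 58.4%, no peak, 40.3% and 55% in the same order. By height of the pileup the order of region 10 was lost, since 44.1% of peaks were higher in iTreg+PBS replicate 1, whereas with IL-4 the shares were 33.2% and 46%. For these 3 regions the order against iTreg+PBS replicate 1 is part of how they were chosen and is no further evidence. The other 4 Prdm1 regions with a STAT6-type match were regions 16, 25, 33 and 39, and none of them was in this class. The ranks of regions 16, 25 and 33 in the full lists overlapped between the conditions, and region 39 ranked 38.9% in iTreg+PBS replicate 1, had no peak in iTreg+PBS replicate 2, and ranked 40.8% and 85.6% with IL-4.

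**Figure D4:**
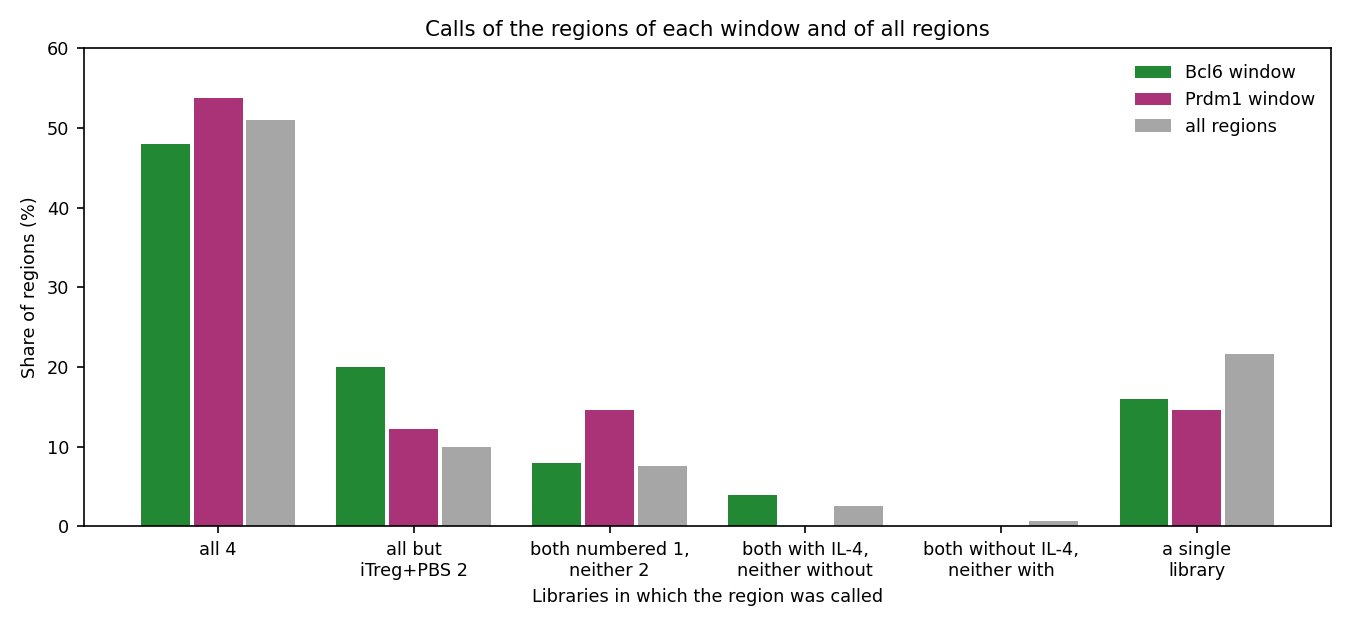
Share of regions (%) by the libraries that called them, for the 25 Bcl6 regions, the 41 Prdm1 regions and all 93679 regions. The classes that follow the condition hold 1 Bcl6 region (4%), called only with IL-4, and no Prdm1 region. Of all regions, 2.60% were called only with IL-4 and 0.699% only without it. Regions missing from iTreg+PBS replicate 2 alone make up 20% at Bcl6 and 12.2% at Prdm1 (9.97% of all regions), and those missing from both libraries numbered 2 make up 8% and 14.6% (7.60%).

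Regions were somewhat denser around Prdm1, at 10.5 per 100 kb of window, than around Bcl6, at 7.72. The same windows around 21774 protein-coding genes had a median of 6.49, and 22.5% of these genes had a denser window than Prdm1 and 40.6% a denser one than Bcl6. Both windows were mostly distal, with 23 of 25 Bcl6 regions and 36 of 41 Prdm1 regions centred over 1 kb from any start site (79.3% of all regions). A Blimp-1-type match was found in 3 of 25 Bcl6 and 4 of 41 Prdm1 regions against 6.65% of all regions, and a STAT-type match in 4 and 7, respectively, against 8.47%.

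Further regions lay close beyond both upstream edges of the windows, and the downstream edge of Bcl6 lay in a stretch without any. At the upstream edges the last region inside was called in 2 libraries, for Bcl6 at 2.12 kb from the edge and for Prdm1 at 1.77 kb. The first region outside was called in all 4 libraries, 12.3 kb beyond the edge for Bcl6, with ranks of 12%, 21.4%, 10.7% and 20.6%, and 225 bases beyond it for Prdm1, with ranks of 33.3%, 74.4%, 34.5% and 45.2%. At the downstream edges the last region inside lay 22.9 kb from the edge for Bcl6, called in all 4 libraries, and 5.01 kb for Prdm1, called in 3. The first outside lay 204 kb beyond for Bcl6, called in 1 library, and 18.4 kb beyond for Prdm1, called in all 4. The next protein-coding gene upstream was Lpp after Bcl6 and Prep after Prdm1. From the windows to these genes lay 30 and 28 further regions, the last of each reaching into that gene. Of these, 14 and 11 were called in all 4 libraries (background 51.0%). None was called in both libraries of a single condition only (backgrounds 2.60% with IL-4 and 0.699% without).

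The promoters of the genes that act with Bcl6 and Prdm1 were mostly open in all libraries. Of 40 genes in 4 lists, 36 had a promoter peak in all 4 libraries (58.2% of 21774 protein-coding genes), 1 in a single library and 3 in none, and none had one in both libraries of a single condition only (backgrounds 0.340% and 0.0873%). Among Tfh regulators 14 of 15 had one in all 4 libraries, with none for Ascl2, a factor that induces Cxcr5. Among genes of Tfh cells 5 of 6 did, with none for Cd40lg, and all 4 corepressors that Bcl6 recruits did. Among the genes upstream or downstream of Prdm1 13 of 15 did, with none for Il10.

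Of the 36 genes, 5 had a promoter peak that ranked better in both iTreg+IL-4 libraries than in both iTreg+PBS libraries (background 20.1%) and 1 one that ranked worse (background 5.78%). Tbx21, which encodes the Th1 factor T-bet, ranked 40.4% and 41.4% without IL-4, against 35.5% and 34.3% with it. Btla, a coinhibitory receptor of Tfh cells, ranked 24.4% and 29.2% without and 20.7% and 22.6% with IL-4. The others included Il6st and Stat5b, whose rank was that of the neighbouring Stat5a in 3 of the libraries. Tox2 was the gene that ranked worse, at 15.6% and 16% without and 16.1% and 18.8% with IL-4. Most of these orders depended on the scale. With the promoter regions of the same 36 genes ranked only among regions called in all 4 libraries, 2 were better with IL-4 (background 12.7%) and 7 worse (background 12.9%), an alternative added after the data were seen. Btla alone was better on both scales, at 39.3% and 34.5% without and 34% and 32% with IL-4, and Tox2 alone was worse on both, at 25.1% and 19% without and 26.5% and 26.6% with IL-4. The ranks of Tbx21, Il6st and Stat5b overlapped there. The 6 genes worse with IL-4 only on that scale were Il21r, Icos, Sh2d1a, Bcor, Bach2 and Id3, with shifts of 0.951 points (Id3) to 8.87 points (Sh2d1a). For Bcl6 and Prdm1 themselves, neither promoter was in either class.

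The promoters most like that of Bcl6, by the Euclidean distance of the 4 ranks among 12671 genes with a promoter peak in all 4 libraries, were those of Phldb3, at 1.29 points, and of Mthfsl and Gm10634, both at 1.39 points with the same ranks. For Prdm1 they were Cdk20, Ell2 and Carhsp1, at 0.365, 0.443 and 0.511 points.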

How the data were processed

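ATAC-seq libraries were sequenced on the BGISEQ-500 platform, and the submitters' processing notes name Bowtie2 2.2.5, MACS2 2.1.2 and bedtools 2.16.2 with mm10. The lists deposited by the authors, 1 per library, give each peak's position, the height of its pileup signal and a score that fits the −log10 q-value of the caller, not scaled between libraries. Their meaning was inferred from the values. Correction for the transposase offset and removal of duplicates are not given in the sources used here. They can move positions, heights and ranks.

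Conditions came from the labels. Peaks were merged and ranked with Python 3.11.15 and numpy 2.4.6, and sequences were read with pysam 0.24.0 and samtools 1.23.1 from GRCm38, with RefSeq records. The counting was tested on simulated data. The exact permutation tests cover the spread between libraries only. Members, lists and motifs were chosen with earlier results of these data known. Regions named were those at start sites, those called in 1 condition only, the 5 best-ranked per window in their weakest library, and any that a count turned on, the last after their values were seen. Alternatives used the upper 50% of each list, lists cut to the 56645 highest peaks, a reciprocal overlap of 50%, flanks of 50 kb, GENCODE records, other ranks, the replicate number as a block, and left out each library. Whether replicate numbers pair the cultures is not given in the labels. Over the 47767 regions called in all 4 libraries, the Pearson r of the rank deviations of the libraries numbered 1 was 0.452. Both libraries numbered 2 had shorter lists, so this r cannot establish pairing. A few items covered by these rules are not reported here.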

Additional observations from a re-analysis of the deposited data

How the results depend on the processing

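Of 132 alternative values of the 12 results, 110 kept the direction or, for counts, stayed within 1.5 times. Window records (GENCODE, curated transcripts alone), rank by height and reciprocal overlap changed no direction, but part of this was fixed in advance. Reciprocal overlap could not change bases inside peaks or the rank of the promoter peak, which were read from the peaks before merging. The GENCODE records, close to those of RefSeq, gave the same value for all 12 results. Such values are among the 110. With the replicate block, the differences were the same by construction (for example −4.73 points in mean rank at Bcl6) and the smallest p that an exact permutation test allows is 0.5. With 2 numbers the pairing itself could not be established. In the Prdm1 window, the difference in mean rank was 3.63 points with lists of equal length and 2.05 points when ranked among regions called in all 4 libraries, in the other direction.

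Leaving out 1 library at a time, the difference in bases inside peaks ran from −27.5 to 3432 at Bcl6 and from −1470 to 5346 at Prdm1, with −354 in 1 further case. The difference in mean rank ran from −11.1 to −0.608 points at Bcl6 and from −12 to 5.39 points at Prdm1, with 4.57 in 1 further case, and that of the promoter peak from 0.32 to 1.73 points at Bcl6 and from −3.1 to 0.636 points at Prdm1. Regions called only with IL-4 ran from 1 to 6 at Bcl6 and from 0 to 5 at Prdm1, and regions called only without IL-4 from 0 to 1 at Bcl6 and from 0 to 2 at Prdm1. Kept to the upper 50% of each list, regions called only with IL-4 numbered 0 at Bcl6 and 1 at Prdm1, and regions called in all 4 libraries numbered 8 at Prdm1. With flanks of 50 kb, 0 Bcl6 regions were called only with IL-4 and 6 in all 4 libraries. With lists of equal length, 1 Prdm1 region was called only without IL-4. The cause of these changes was not tested. The unknown read depth limits every call, and iTreg+PBS replicate 2, with the fewest peaks, decides the direction of several differences.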
